A study of Mus musculus with 16 samples.

Results

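The endothelin and adrenomedullin systems were followed through 7 of the 54193 annotated genes in cultured mouse brain microvascular endothelial cells (mBMEC). The genes were chosen by name for their place in these systems, with earlier results of these data known. They are Edn1, which encodes the precursor of endothelin-1, Ece1, which encodes endothelin converting enzyme 1, Ednrb, which encodes the endothelin B receptor, Adm, which encodes the precursor of adrenomedullin, Calcrl, which encodes the calcitonin receptor-like receptor, and Ramp2 and Ramp3, which encode its receptor activity-modifying proteins. All 7 passed the filter on low counts. The study asked how loss of Ccm3 (gene symbol Pdcd10), a gene whose inactivation causes cerebral cavernous malformations, and treatment with propranolol or rapamycin alter the transcriptome of these cells.

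All cells came from adult mice aged 8 to 10 weeks on a C57BL/6J background that carried Cdh5(PAC)-CreERT2 and PDCD10 fl/fl, so the tamoxifen-inducible recombinase was driven by an endothelial promoter in every group. KO cells had received 4-hydroxytamoxifen (4-OHT) and WT cells had not, so that loss of Ccm3 and exposure to 4-OHT cannot be told apart in any comparison of KO with WT. The groups were WT (3 libraries), WT with 10 µM propranolol for 24 h (WT+P, 2 libraries), WT with 100 nM rapamycin for 24 h (WT+R, 2 libraries), KO (3 libraries), and KO with the same propranolol (KO+P, 3 libraries) or rapamycin treatment (KO+R, 3 libraries). Propranolol is a blocker of beta-adrenergic receptors and rapamycin an inhibitor of mTORC1. Each culture was raised from the pooled brains of several mice, selected with puromycin and used at passage 2, and the labels call the cultures biological replicates.

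Endothelin-1 is a small peptide that constricts vessels. It is cut from a larger precursor by furin-type proteases and then by endothelin converting enzyme, and acts on the endothelin A receptor, mainly of smooth muscle, and on the endothelin B receptor, which in endothelium is known for the release of nitric oxide and for clearing the peptide. Adrenomedullin relaxes vessels and tightens the endothelial barrier. Its receptor is built from the calcitonin receptor-like receptor and either RAMP2 or RAMP3, and RAMP2 with this receptor is needed in endothelium for vessels to form and keep their integrity.

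Edn1 lies on the plus strand of chromosome 13 of GRCm39 from 42446301 to 42461466, Ece1 on the plus strand of chromosome 4 from 137589530 to 137692542, and Ednrb on the minus strand of chromosome 14 from 104052053 to 104081900. Adm lies on the plus strand of chromosome 7 from 110226858 to 110229027 and Calcrl on the minus strand of chromosome 2 from 84160957 to 84255755. Ramp2 and Ramp3 lie on the plus strand of chromosome 11, from 101136358 to 101150419 and from 6608511 to 6627475. Exons of Ramp2 share 32.1% of their bases with Vps25 on the same strand. Exons of Ramp3 share 7.3% with Gm11978 and those of Edn1 share 1.5% with Gm47118, both on the other strand. Reads that lie within shared bases cannot be told apart by position. The libraries also carry no strand that would separate the pairs on opposite strands. The other 4 genes share no exonic base with a neighbour.

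Short stretches at the RefSeq transcription start are shown for the peptide and receptor genes whose levels differed most between groups. They hold bases 5 to 34 counted from the first transcribed base of the RefSeq entry, with motifs in capitals. The RefSeq start lies 210 bases downstream of the start of Edn1-201, the Edn1 transcript in the files, and 23 bases downstream of that of Ednrb-202. RefSeq windows of 300 bases around the start (table build GRCm38.p6, placed on GRCm39 by sequence match) were available for 6 of the 7 genes, Ramp2 being the exception, and were searched on both strands for ACGTG (the core bound by HIF), GATAA (the core bound by GATA factors), TGACTCA (AP-1) and GGCGCC (the GC element of SMAD1 and SMAD5).
Edn1, chr13:42454956-42454985, plus strand: ggtcTTATCtctggctgCACGTtgcctgtg
Adm, chr7:110226868-110226897, plus strand: agtggtttcttggtgacactagacagagca
Ednrb, chr14:104081104-104081133, minus strand: aggagactgaatgcagaccagcgggtggcg
In the Edn1 window the capitals mark GATAA on the reverse strand from base 9 and ACGTG on the reverse strand from base 22. Of 32851 promoter windows of the same length, 25.4% hold GATAA, 19.6% hold ACGTG and 4.1% hold both. None of the 4 motifs was found in the Adm and Ednrb windows. The Ece1 window held 1 GGCGCC, which 11.9% of windows hold, and TGACTCA (5.2% of windows) was in none of the 6. Such matches describe letters and not binding.

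The libraries held 18.83 to 26.2 M counts. Pdcd10, the targeted gene, stood at 11.5, 31.2 and 47.0 CPM (normalised read counts, scaled to a common library size) in the libraries labelled WT replicates 1, 2 and 3 and at 9.72, 11.0 and 9.73 CPM in KO. The library labelled WT replicate 1 thus lay near the KO level, against its label, and values without it are given beside the main differences of the 7 genes from WT. All 10 endothelial markers were expressed, with a summed level of 12010 to 15120 CPM in WT and 12520 to 13980 CPM in KO. Fewer cells of a type and less RNA per cell cannot be told apart in such bulk samples.

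Genes were tested with edgeR's quasi-likelihood test over all 14838 genes that passed the filter, where a call needed a p-value, adjusted by the method of Benjamini and Hochberg, under 0.05 together with a change of over 1.5-fold. Libraries with the same replicate number deviated together, so values with the replicate number as a block are given where they change a call. Same-numbered libraries are called a culture below, although the labels and methods do not state that these libraries share one. Comparisons that share KO or WT libraries are not independent of each other.

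Of the 7 genes, 4 had no overlap between KO and WT libraries, against 13.2% of all tested genes. Edn1 and Adm were lower and Ednrb and Ramp2 higher in KO. At the adjusted threshold 0 of the 7 were called, against 0.00674% of all genes. The unadjusted p-value of all 4 was under 0.05 in edgeR, as was that of 900 of the 14838 genes. With the replicate block 1 was called (Edn1), against 0.182%. DESeq2 called 2, against 62 of the 27209 genes it tested. The median log2 fold change of the 7 was 0.12, against −0.006 over all genes, since the members lay on both sides of 0.

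Rapamycin in KO cells gave 1 called gene (Edn1, higher), against 1.51% of all genes, and 2 with the block (Edn1 higher and Ednrb lower), against 4.98%. The KO+R and KO libraries of 4 of the 7 genes did not overlap, with Edn1 higher and Ednrb, Ece1 and Ramp2 lower, against 24.1% of all genes. The median log2 fold change of the 7 was −0.47, against −0.022 over all genes. In WT cells rapamycin gave 0 called genes, against 1.4%. Of the 7, 2 had an unadjusted p-value under 0.05 in edgeR, against 1877 of the 14838 genes. With the block 1 was called (Edn1), against 4.56%, and DESeq2 called 2, against 548 of 27209 genes. Edn1 was higher and Ednrb and Ece1 lower without overlap there, 3 of 7 genes against 28.6%.

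Propranolol gave 0 called genes of the 7 in KO cells in edgeR, with and without the block, against 0.142% and 0.00674% of all genes. It also gave 0 in WT cells, against 0.0809% and 0.00674%. DESeq2 called 0 in both, against 157 and 117 of 27209 genes. With the block DESeq2 called 1 in KO cells (Ece1), against 924 of 27228 genes. Without the block 1 of the 7 in KO (Ece1) had an unadjusted p-value under 0.05 in edgeR, against 1870 of the 14838 genes. In WT cells 0 had, against 1464. With the block 2 had in KO (Ednrb and Ece1), against 3716, and 1 in WT cells (Ednrb), against 1993. Between KO+P and KO the libraries of 2 genes did not overlap (Ednrb higher, Ece1 lower), against 18.7% of all genes, and between WT+P and WT those of 1 (Ece1 lower), against 21.2%.

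Between genotypes under a drug, 4 of the 7 genes did not overlap with propranolol, against 16.6% of all genes, and they were the 4 of the untreated cells in the same directions. With rapamycin 2 did not overlap (Ednrb and Ramp2, higher in KO+R than in WT+R), against 19.2%. No gene of the 7 was called without the block in these comparisons, nor was any of all genes (0%). An unadjusted p-value under 0.05 in edgeR was reached by 3 and 2 of the 7, against 918 and 849 of the 14838 genes. With the block 1 was called with propranolol (Edn1), against 0.0876%, and 0 with rapamycin, against 0.0944%. DESeq2 called 1 in each, against 59 and 73 of 27209 genes. KO+R against untreated WT gave 0 called genes, against 2.51%, and 1 with the block (Adm, lower), against 6.91%. Without the block 0 of the 7 had an unadjusted p-value under 0.05 in edgeR, against 2391 of the 14838 genes. Only Ramp2 did not overlap between KO+R and WT, 1 of 7 against 22.6%. Neither drug's change was called different between genotypes for any of the 7, nor for any of all genes, in edgeR with or without the block. Over all genes 107 (propranolol) and 113 (rapamycin) interactions had an unadjusted p-value under 0.05 without the block, and 0 of them belonged to the 7. With the block 1 of the 7 did, Edn1 with rapamycin, where 287 of all genes did.

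**Figure D1:**
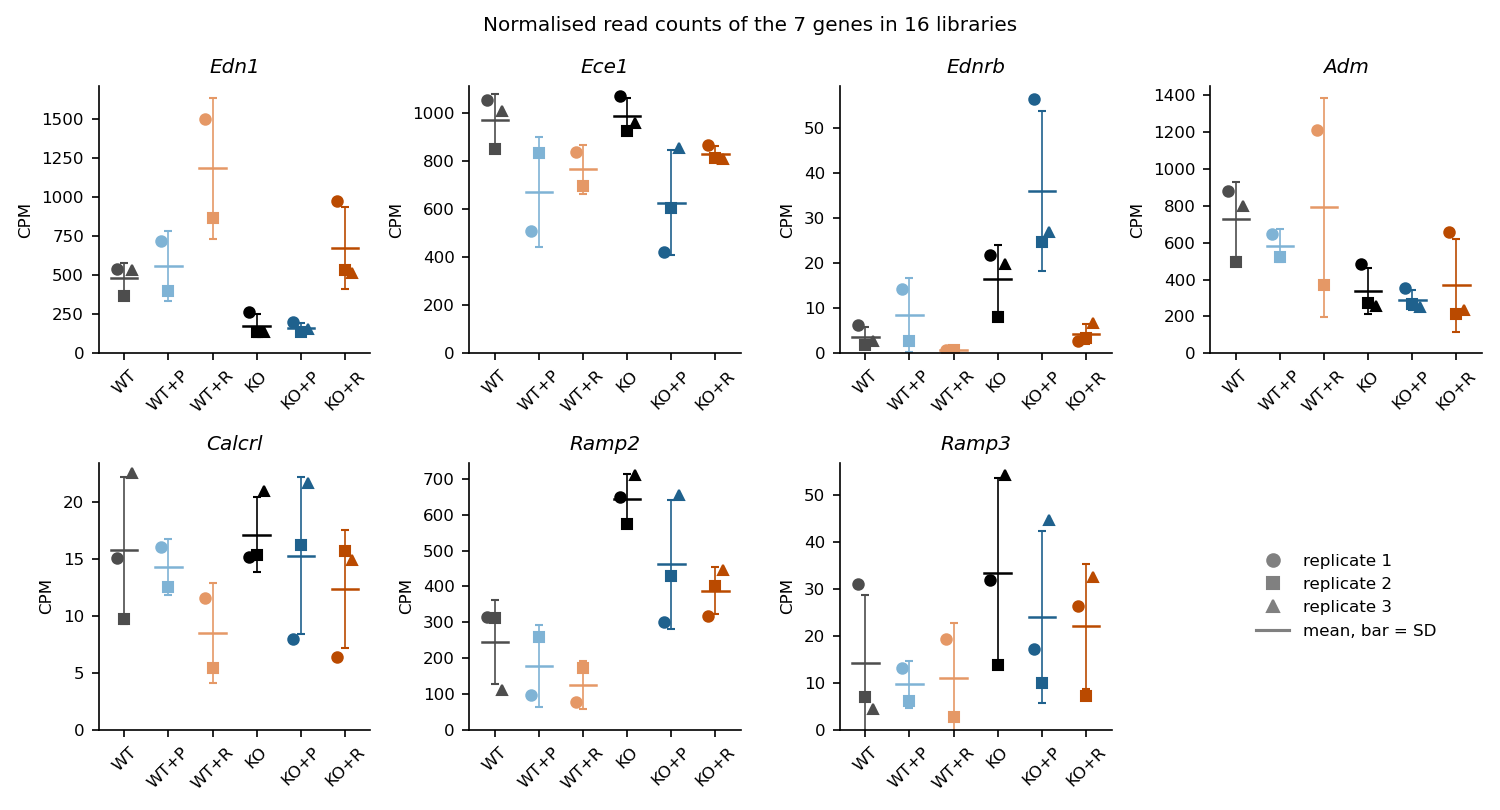
Normalised read count (CPM, vertical axes from 0) of each of the 7 genes in the 6 groups, with a symbol per culture, the group mean as a line and the SD as a bar. Edn1 lies between 133 and 263 CPM in KO and between 514 and 975 CPM in KO+R, whereas Ednrb moves the other way and Calcrl overlaps in all 8 comparisons.

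Endothelin-1 itself was the gene of the systems with the clearest differences. Edn1 stood at 542, 366 and 531 CPM in WT replicates 1, 2 and 3 and at 263, 134 and 133 CPM in KO. All KO libraries were below all WT libraries, and within each culture the KO library was lower by 2.06-, 2.73- and 3.98-fold. Mean levels came to 480 ± 98.5 CPM for WT and 177 ± 74.8 CPM for KO (SD, n = 3). On the log2 scale the difference was −1.44 with a standard error (SE) of 0.36 (adjusted p = 0.39 in edgeR), and with the replicate block −1.5 (SE 0.16, adjusted p = 0.00748). Leaving out the library labelled WT replicate 1 in the blocked model gave −1.67 (SE 0.16, adjusted p = 0.00485 in edgeR). The difference in KO cells was thus called only where the culture entered the model or where DESeq2 was used (adjusted p = 0.0142).

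Rapamycin raised Edn1 in KO cells. The KO+R libraries held 975, 534 and 514 CPM, each above every KO library, and the ratio to the KO library of the same culture was 3.70, 3.97 and 3.85. Its log2 fold change was 1.93 (SE 0.36, adjusted p = 0.0226 in edgeR) and 1.94 with the block (SE 0.16, adjusted p = 0.000127). The ratios were near equal although replicate 1 held more Edn1 than the other cultures in both groups. The call was lost without KO replicate 2, KO replicate 3 or KO+R replicate 1 (adjusted p = 0.102, 0.0957 and 0.0863 in edgeR, with log2 fold changes of 1.77, 1.76 and 1.59) and with only the groups compared in the model (adjusted p = 0.054).

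In WT cells the WT+R libraries held 1502 and 864 CPM, also above all WT libraries, with within-culture ratios of 2.77 and 2.36. On the log2 scale the change was 1.30 (SE 0.39, adjusted p = 0.13 in edgeR), and 1.18 with the block (SE 0.18, adjusted p = 0.00414). Leaving out the library labelled WT replicate 1 in the blocked model gave 1.01 (SE 0.18, adjusted p = 0.0206 in edgeR). The difference between the changes in KO and in WT cells was 0.63 on the log2 scale with an SE of 0.53 (adjusted p = 1 in edgeR), and 0.76 with the block (SE 0.24, unadjusted p = 0.0089, adjusted p = 1 in edgeR). Of 10 mural markers 7 were tested, and 1 of them, Acta2, was called higher in WT+R than in WT (list median log2 fold change 0.31, against −0.012 over all genes). Their summed level was 565 to 632 CPM in WT+R against 40.6 to 180 CPM in WT. Nearly all of it was Acta2, the smooth muscle actin, while Kcnj8, Abcc9 and Vtn stayed under 1 CPM in every library. In KO cells the summed level was 64.8 to 173 CPM with rapamycin and 33.8 to 61.0 CPM without. Its part in the level of Edn1 was not tested.

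KO+R cells and untreated WT cells overlapped in Edn1 (log2 fold change 0.49, SE 0.35, adjusted p = 0.57 in edgeR). Propranolol left Edn1 at 200, 137 and 153 CPM in KO+P, inside the range of KO, with a log2 fold change of −0.12 (SE 0.35, adjusted p = 0.91 in edgeR). WT+P cells held 719 and 400 CPM, overlapping WT. The genotype difference was present with propranolol, where KO+P lay below WT+P in both cultures (log2 fold change −1.78, SE 0.39, adjusted p = 0.34 in edgeR, and −1.66, SE 0.18, adjusted p = 0.00794 with the block). With rapamycin KO+R lay 1.54- and 1.62-fold below WT+R in the 2 shared cultures, and the groups overlapped across cultures. The log2 fold change was −0.81 (SE 0.39, adjusted p = 0.9 in edgeR), and −0.75 with the block (SE 0.18, adjusted p = 0.12). Of 7 other settings of the test 1 called this difference.

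Ece1, whose membrane-bound enzyme makes the active peptide, differed between genotypes by less than the spread between replicates. It held 1056, 850 and 1008 CPM in WT and 1070, 927 and 960 CPM in KO, overlapping ranges with a log2 fold change of 0.021 (SE 0.23, adjusted p = 1 in edgeR). With propranolol it stood at 421, 606 and 854 CPM in KO+P and at 510 and 833 CPM in WT+P, in each case below all untreated libraries of the same genotype. The spread was uneven, since the within-culture ratios of KO to KO+P were 2.54, 1.53 and 1.13. The log2 fold change in KO cells was −0.65 (SE 0.23, adjusted p = 0.33 in edgeR) and was called without KO+P replicate 3 (−0.94, adjusted p = 0.048). DESeq2 with the block also called it (adjusted p = 0.0374). In WT cells it was −0.53 (SE 0.26, adjusted p = 0.52 in edgeR). The summed level of the 10 endothelial markers, of which 0 were called with propranolol, was 8098, 10090 and 12190 CPM in KO+P replicates 1, 2 and 3 and 7471 and 11530 CPM in WT+P, each below the untreated libraries of its own genotype, and their part in the result was not tested. With rapamycin Ece1 held 838 and 694 CPM in WT+R and 869, 811 and 809 CPM in KO+R, lower than untreated cells by 1.14- to 1.26-fold in each culture, without a call.

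The gene of the endothelin B receptor rested on the fewest reads of the 7. Ednrb held 6.26, 1.79 and 2.79 CPM in WT and 21.9, 8.01 and 19.9 CPM in KO, without overlap. The KO library was higher in each culture, by 3.46-, 4.31- and 6.94-fold. In edgeR the log2 fold change was 2.20 (SE 0.65, adjusted p = 0.5 in edgeR) and 2.23 with the block (SE 0.45, adjusted p = 0.0679), so that it missed the threshold in both, while DESeq2 gave an adjusted p-value of 0.0495. The blocked value without the library labelled WT replicate 1 was 2.54 (SE 0.55, adjusted p = 0.0652 in edgeR).

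The drugs stood on opposite sides for this receptor. KO+P libraries held 56.6, 24.7 and 27.0 CPM, above all KO libraries, and KO+R libraries 2.81, 3.36 and 6.82 CPM, below all KO libraries. For propranolol the log2 fold change in KO cells was 1.12 (SE 0.62, adjusted p = 0.46 in edgeR), with within-culture ratios of 2.58, 3.06 and 1.36. For rapamycin it was −1.93 (SE 0.64, adjusted p = 0.2 in edgeR) and −1.78 with the block (SE 0.44, adjusted p = 0.0356), and the KO+R library was lower than the KO library of its culture by 7.60-, 2.35- and 2.89-fold.

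In WT cells Ednrb held 14.4 and 2.72 CPM with propranolol, overlapping WT, and 0.627 and 0.645 CPM with rapamycin, below all WT libraries. The 2 WT+R values rest on few reads, since the lowest library held 14 counts. The log2 fold change with rapamycin was −2.49 (SE 0.84, adjusted p = 0.19 in edgeR), and −2.30 with the block (SE 0.66, adjusted p = 0.0661). The blocked model that omits the library labelled WT replicate 1 gave −1.94 (adjusted p = 0.2 in edgeR). Of 8 other settings of the test 2 called the change with rapamycin in WT cells. The genotype difference stood at 2.08 with propranolol and 2.76 with rapamycin on the log2 scale (SEs 0.74 and 0.84, adjusted p = 0.68 and 0.54 in edgeR), with KO above WT in both shared cultures each time. With the block the differences were 2.25 and 2.75 (SEs 0.51 and 0.66, adjusted p = 0.126 and 0.128 in edgeR). Of 7 other settings of the test 1 called the difference with propranolol and 2 that with rapamycin.

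Ednrb is also a gene of astrocytes, so their markers were read beside it. Of 9 astrocyte markers 3 were tested, and Gfap, Aqp4, Slc1a2, Slc1a3, Aldoc and S100b lay under 1 CPM in every library. Gfap did not exceed 0.149 CPM and Aqp4 0.0895 CPM. The summed level of the list was 33.3 to 79.9 CPM in WT, 41.8 to 73.6 CPM in KO, 73.2 to 111 CPM in KO+P and 37.2 to 62.0 CPM in KO+R. Most of it came from Gja1, a gap junction gene that endothelial cells express too. The 3 Ednrb transcripts in the files traded counts between libraries, so its levels are given for the whole gene only.

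**Figure D2:**
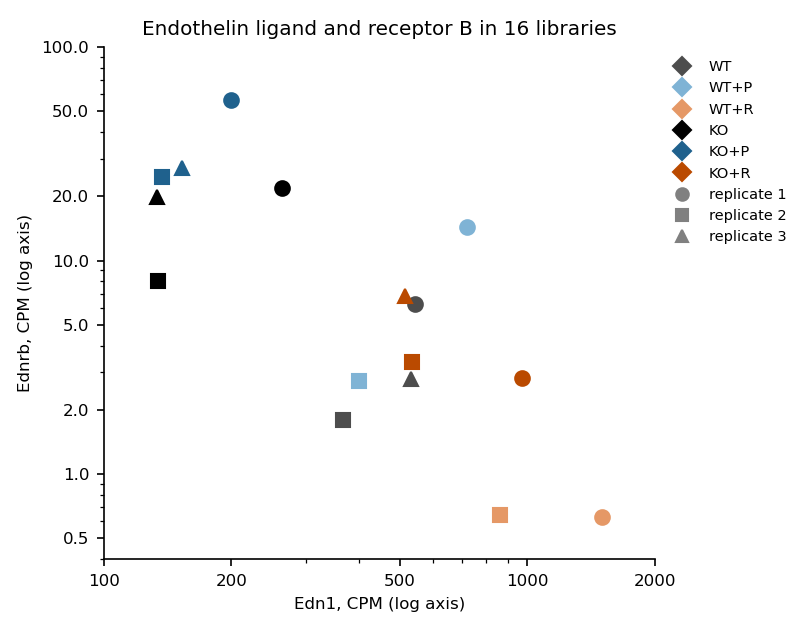
Level of Ednrb (vertical, CPM) against Edn1 (horizontal, CPM) in the 16 libraries, both on log axes, with colours for the groups and symbols for the cultures. WT+R libraries sit at the lower right (Edn1 864 and 1502 CPM, Ednrb under 1 CPM) and KO and KO+P libraries at the upper left (Edn1 at most 263 CPM).

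Ligand and receptor took opposite places across the groups. After the mean of each culture was subtracted, log2 CPM of Edn1 and Ednrb had a Pearson r of −0.91 over the 16 libraries, a value that holds the group differences already described and libraries that share cultures. The corresponding r was 0.58 for Edn1 with Adm and 0.15 for Edn1 with Ece1. The ratio of Edn1 to Ednrb in TPM, a unit corrected for transcript length and library size, was 176 to 409 in WT, 12.8 to 31.7 in KO, 6.64 to 10.6 in KO+P, 95.8 to 298 in WT+P, 142 to 725 in KO+R and 2659 to 4779 in WT+R.

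Adm was lower in KO than in WT cells and overlapped its untreated level with either drug. It held 883, 497 and 802 CPM in WT and 482, 272 and 259 CPM in KO, with a narrow gap between the lowest WT and the highest KO library. Within cultures KO was lower by 1.83-, 1.83- and 3.1-fold. The means were 727 ± 203 CPM and 338 ± 126 CPM (SD, n = 3). Its log2 fold change was −1.11 (SE 0.48, adjusted p = 0.77 in edgeR) and −1.15 with the block (SE 0.28, adjusted p = 0.1), and −1.32 with the block when the library labelled WT replicate 1 was omitted (SE 0.31, adjusted p = 0.0869 in edgeR).

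With propranolol Adm stood at 352, 266 and 250 CPM in KO+P and 647 and 520 CPM in WT+P, and with rapamycin at 659, 215 and 234 CPM in KO+R and 1213 and 371 CPM in WT+R. Each treated group overlapped its untreated cells in WT with both drugs, and in KO as well. In replicate 1 Adm was higher with rapamycin, by 1.37-fold in both WT and KO cells, and in the other cultures it was lower. The log2 fold change of KO+R against KO was 0.13 (SE 0.48, adjusted p = 0.96 in edgeR) and that of KO+P against KO −0.22 (SE 0.48, adjusted p = 0.87). KO+R cells held less Adm than untreated WT cells in each culture, by 1.34-, 2.31- and 3.43-fold. This difference had a log2 fold change of −0.98 without the block (SE 0.48, adjusted p = 0.35 in edgeR) and was called with it (−1.12, SE 0.28, adjusted p = 0.0282), also without the library labelled WT replicate 1 (−1.29, adjusted p = 0.0359).

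The ratio of Adm to Edn1 in TPM was 2.28 to 2.76 in WT, 3.13 to 3.34 in KO and 2.78 to 3.21 in KO+P. With rapamycin it was 0.67 to 1.16 in KO+R and 0.713 to 1.36 in WT+R, below all untreated libraries, and in WT+P it was 1.52 to 2.16, also below all WT libraries. Both genes were thus lower in KO cells, but of the pair Edn1 alone was higher with rapamycin in every culture.

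Calcrl, the receptor subunit that binds adrenomedullin together with a RAMP, held 15.1, 9.68 and 22.5 CPM in WT and 15.1, 15.3 and 20.9 CPM in KO. The groups overlapped in all 8 comparisons. Its log2 fold changes ran from −0.89 (WT+R against WT, SE 0.50) to 0.54 (KO+R against WT+R, SE 0.50), and the lowest adjusted p in edgeR was 0.52 without the block and 0.48 with it. With rapamycin it stood at 11.6 and 5.41 CPM in WT+R and 6.41, 15.7 and 14.9 CPM in KO+R. With propranolol it stood at 16.0 and 12.5 CPM in WT+P and 7.95, 16.2 and 21.6 CPM in KO+P.

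Ramp2, which carries the calcitonin receptor-like receptor to the cell surface and makes it an adrenomedullin receptor, held 315, 312 and 110 CPM in WT and 650, 574 and 710 CPM in KO. All KO libraries were above all WT libraries, and the within-culture ratios were 2.06, 1.84 and 6.43. The means were 246 ± 117 CPM and 645 ± 68.4 CPM (SD, n = 3), with a log2 fold change of 1.39 (SE 0.46, adjusted p = 0.57 in edgeR) and 1.38 with the block (adjusted p = 0.18). When the library labelled WT replicate 1 was omitted from the blocked model it was 1.93 (SE 0.45, adjusted p = 0.0837 in edgeR).

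Both drugs went with lower Ramp2 values in every culture of both genotypes, without a call. KO+R libraries held 318, 402 and 445 CPM, below all KO libraries but above all WT libraries, and KO+P libraries 301, 429 and 655 CPM. WT+R libraries held 77.2 and 173 CPM and WT+P libraries 96.2 and 260 CPM. The log2 fold change in KO cells was −0.73 with rapamycin (SE 0.45, adjusted p = 0.57 in edgeR) and −0.48 with propranolol (SE 0.45, adjusted p = 0.67). KO exceeded WT under rapamycin by 4.11- and 2.33-fold in the shared cultures. The main transcript, Ramp2-204, took 79.8% of the counts of the gene and a retained-intron transcript 12.4%, while a transcript that reads through into Vps25 took 3.6%. The level in TPM, which leaves this transcript out but holds the retained-intron transcript, was 433 ± 206 in WT and 1140 ± 119 in KO (SD, n = 3). Ramp2-204 alone averaged 333 TPM in WT and 863 TPM in KO.

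Ramp3, the alternative partner, varied widely between cultures of the same group. It held 31.1, 6.99 and 4.47 CPM in WT and 32.0, 13.9 and 54.3 CPM in KO, with within-culture ratios of 1.03, 1.97 and 11.9. The overlap rested on the library labelled WT replicate 1. On the log2 scale the change was 1.24 with an SE of 0.89 (adjusted p = 1 in edgeR). Leaving out 1 library in turn gave values from 0.70 to 2.53. The lowest adjusted p among these fits was 0.74 in edgeR, without WT replicate 1. KO+P libraries held 17.3, 10.05 and 44.7 CPM, KO+R libraries 26.5, 7.18 and 32.7 CPM, WT+P libraries 13.3 and 6.07 CPM and WT+R libraries 19.4 and 2.79 CPM. In each of these 10 libraries the treated culture lay below its untreated partner, with no call. Across the 16 libraries Ramp3 and Ramp2 had an r of 0.83 after the culture means were subtracted.

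**Figure D3:**
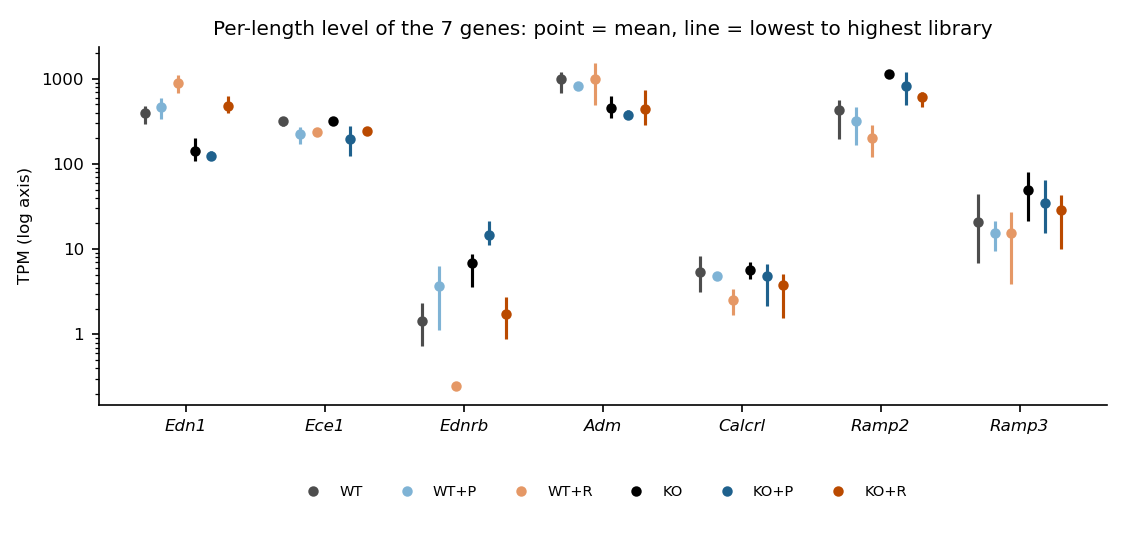
Per-length level (TPM, log axis) of the 7 genes in the 6 groups, with the mean as a point and the lowest to highest library as a line. Ramp2 exceeds Calcrl and Ramp3 in every group, and Ednrb spans the widest range of group means, from 0.245 to 14.5 TPM.

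Per length, Adm was the most abundant of the 7 in WT cells with 1002 ± 281 TPM, followed by Ramp2 (433 ± 206), Edn1 (395 ± 89.6) and Ece1 (319 ± 37.9), whose ranges overlapped, and then by Ramp3 (20.6 ± 20.7), Calcrl (5.36 ± 2.73) and Ednrb (1.45 ± 0.836; SD, n = 3). Ramp3 and Calcrl overlapped, while the lowest Calcrl library (3.11 TPM) was above the highest Ednrb library (2.36 TPM). In KO cells the order was Ramp2 (1140 ± 119), Adm (450 ± 149), Ece1 (315 ± 15.7), Edn1 (140 ± 50.5), Ramp3 (49.2 ± 29.2), Ednrb (6.91 ± 2.88) and Calcrl (5.63 ± 1.29). Only the last 2 overlapped there. The gap between Adm (lowest library 350 TPM) and Ece1 (highest 333 TPM) rests on leaving out transcripts with few counts. Of these Ece1-203 and Ece1-204 averaged 18.9 and 31.0 TPM in KO. The Ramp2 values here hold its retained-intron transcript, and the mean of Ramp2-204 alone in WT (333 TPM) was below that of Edn1. Ramp2 transcripts outnumbered those of the receptor, with a ratio of Ramp2 to Calcrl in TPM of 23.2 to 181 in WT and 180 to 253 in KO. The ratio of Ramp2 to Ramp3 was 12.2 to 53.6 in WT and 15.8 to 47.6 in KO.

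**Figure D4:**
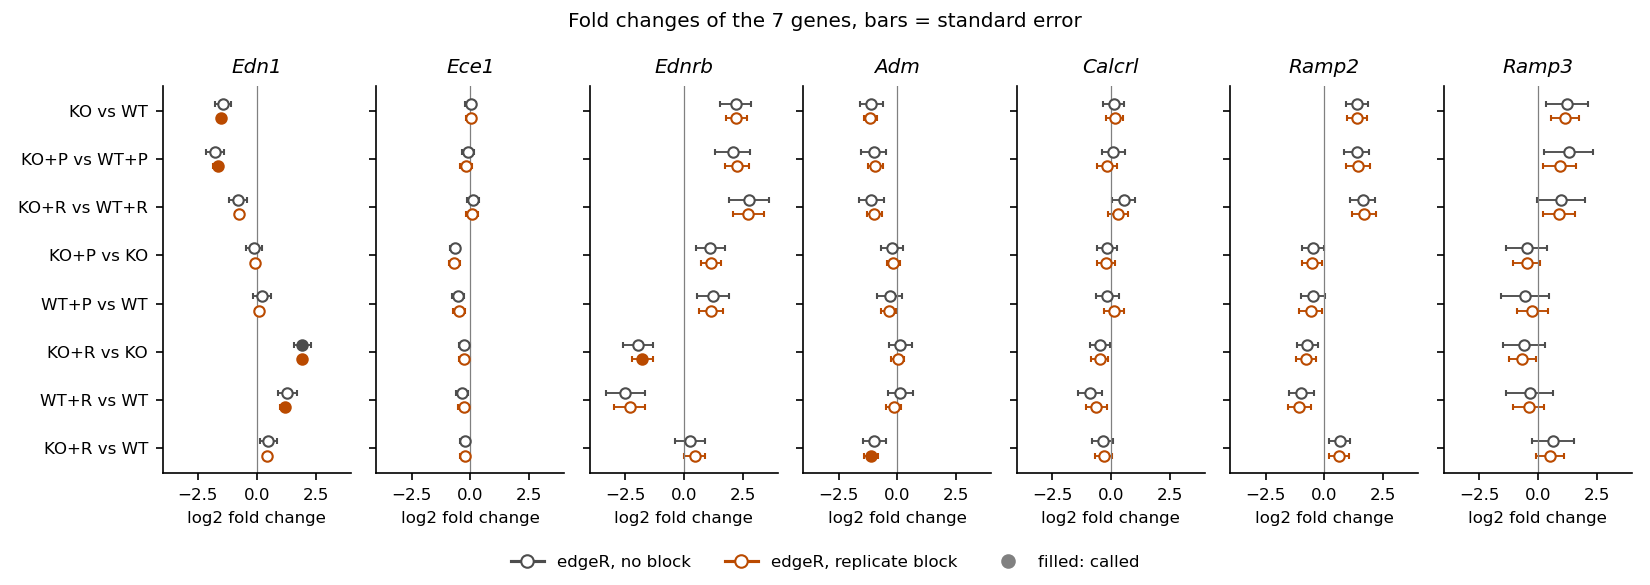
Log2 fold change (horizontal) of the 7 genes in 8 comparisons, with the standard error as a bar, from edgeR without (grey) and with the replicate block (orange), where filled points were called. Points of Edn1 are filled in KO+R against KO in both fits and in 3 further comparisons with the block, and Ednrb and Adm are filled in 1 comparison each with the block.

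For each of the 7 genes the 3 genes with the most similar pattern were listed by Pearson r of log2 CPM over the 16 libraries after the culture means were subtracted, among genes that averaged 1 CPM or more. They were Lrrfip1, Sgk1 (a serum and glucocorticoid regulated kinase) and Thbs1 (thrombospondin 1) for Edn1, each with an r of 0.98. Kcnq1, a potassium channel gene, was nearest to Ednrb (r = 0.98), ahead of Trim16 and Fam167a (both 0.96). For Ece1 they were Xxylt1 (0.979), D930048N14Rik (0.975) and Cbx6 (0.974), and for Adm they included Ppp1r37 (0.952) and Prss23 (0.945). Calcrl had the weakest likeness, with Stxbp5 and Usp25 at 0.88 and Yes1 at 0.86. Ramp2 had Rtp3 (0.99), Ckb (0.98) and Acy3 (0.97), and Ramp3 had Lbp (0.94), Lca5l (0.94) and Crip1 (0.93). These libraries share cultures and group differences, and the values are a description.

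Other genes of the endothelin system were few in these cells. Of 7 listed partners only Edn3, Mme and Furin passed the filter, and 0 were called in any comparison with or without the block. Furin, a protease that starts the maturation of endothelin precursors, was the highest with 220 ± 30.7 CPM in WT and 240 ± 22.5 CPM in KO (SD, n = 3). It held 110, 167 and 218 CPM in KO+P, overlapping KO (log2 fold change −0.54, SE 0.23, adjusted p = 0.36 in edgeR). The endothelin A receptor gene Ednra did not pass the filter. The median log2 fold change of the tested partners was 0.13 for KO against WT, beside −0.006 over all genes.

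Of 10 listed partners of adrenomedullin 6 passed the filter. With the block 1 was called in 1 comparison, KO+P against KO, against 0.142% of all genes. This was Adm2, which encodes adrenomedullin 2 (intermedin), a peptide that acts through the same receptors. It held 0.0920, 0.112 and 0.0820 CPM in WT, 0.271, 0.228 and 0.133 CPM in KO and 0.159, 0.0820 and 0.0445 CPM in KO+R, and 0 counts in both WT+R libraries. With propranolol it held 8.05 and 1.5 CPM in WT+P and 13.2, 7.25 and 0.826 CPM in KO+P, above all other libraries. These values rest on 174 and 38 counts in WT+P and 317, 174 and 16 counts in KO+P, against at most 7 counts in any library without propranolol. The log2 fold change in KO cells was 5.03 (SE 0.94, adjusted p = 0.13 in edgeR) and 4.76 with the block (SE 0.63, adjusted p = 0.0195). In WT cells it was 5.56 (SE 1.04, adjusted p = 0.13 in edgeR) and 4.73 with the block (SE 0.75, adjusted p = 0.0696). Without KO+P replicate 3 the value in KO cells was 5.56 (adjusted p = 0.00863 in edgeR, no block), and without WT+P replicate 2 that in WT cells was 6.32 (adjusted p = 0.0176 in edgeR). With so few counts in untreated cells the size of the change is known only coarsely.

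**Figure D5:**
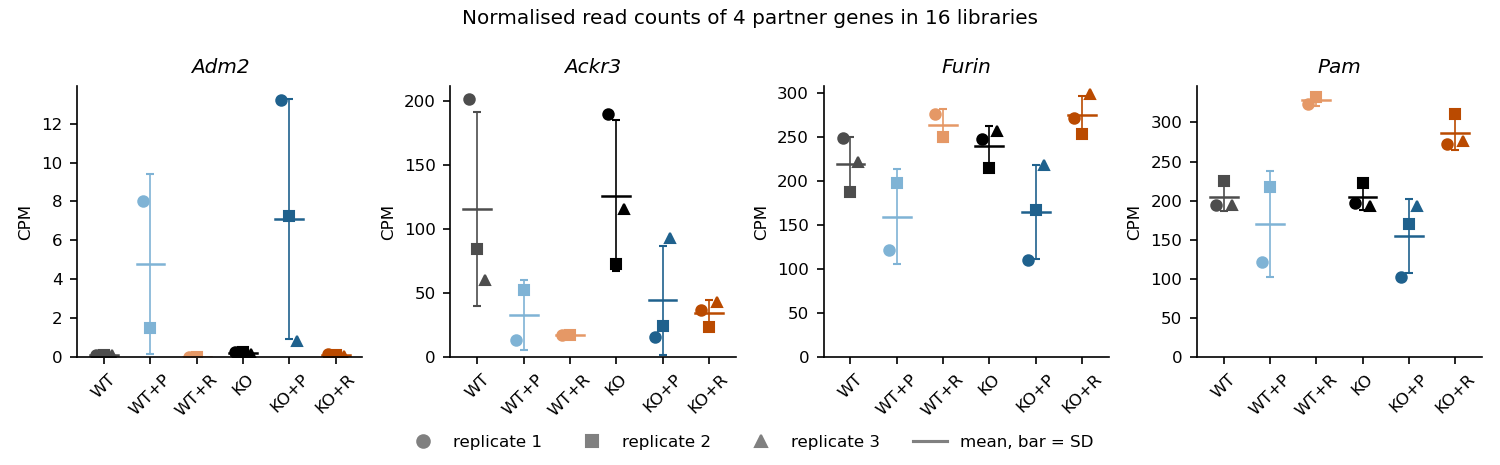
Normalised read count (CPM, vertical axes from 0) of Adm2, Ackr3, Furin and Pam in the 6 groups, with a symbol per culture, the mean as a line and the SD as a bar. Adm2 lies at or under 0.271 CPM in all libraries without propranolol, and Ackr3 at or under 42.9 CPM in all 5 rapamycin libraries.

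Ackr3, an atypical receptor that takes up adrenomedullin and chemokines, was lower with both drugs, without a call. It held 202, 84.4 and 60.2 CPM in WT and 190, 73.0 and 115 CPM in KO. With rapamycin it held 17.3 and 16.8 CPM in WT+R and 36.4, 23.7 and 42.9 CPM in KO+R, below all untreated libraries. In edgeR the log2 fold change was −1.88 in KO (SE 0.69, adjusted p = 0.26 in edgeR) and −2.76 in WT cells (SE 0.84, adjusted p = 0.14). With propranolol it held 13.3 and 52.1 CPM in WT+P and 15.7, 23.9 and 93.0 CPM in KO+P, and the last overlapped KO. Pam, the amidating enzyme that activates adrenomedullin, held 205 ± 17.3 CPM in WT and 204 ± 16.3 CPM in KO (SD, n = 3) and 272, 311 and 276 CPM in KO+R, above all KO libraries (log2 fold change 0.49, SE 0.22, adjusted p = 0.39 in edgeR). The genes of the calcitonin receptor, both calcitonin gene-related peptides and Ramp1 did not pass the filter. The median log2 fold change of the 6 tested partners was 0.063 for KO against WT, −0.63 for KO+P and −0.46 for KO+R against KO.

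Among 18 genes of other vasoactive systems 11 were tested and 0 were called without the block in any comparison. With it, rapamycin in KO cells gave 1 called gene, Ace, the angiotensin converting enzyme, and in WT cells 3, namely Ace, Ptgis (prostacyclin synthase) and Nppb (natriuretic peptide B), against 4.98% and 4.56% of all genes. KO+R against untreated WT gave 2, Ace and Bdkrb2 (a bradykinin receptor), against 6.91%. All were higher. Without the library labelled WT replicate 1 the blocked model called none of the 3 in WT cells (adjusted p = 0.117 for Ace, 0.145 for Ptgis and 0.143 for Nppb in edgeR), and still called Ace and Bdkrb2 in KO+R against WT (adjusted p = 0.0329 and 0.0444 in edgeR). Ace held 31.9, 55.6 and 43.7 CPM in KO and 106, 174 and 111 CPM in KO+R, without overlap, with a log2 fold change of 1.58 (SE 0.64, adjusted p = 0.31 in edgeR) and 1.59 with the block (SE 0.34, adjusted p = 0.0169).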

How the data were processed

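RNA-seq was performed by the authors on poly(A) RNA of 16 mBMEC libraries in 6 groups of 2 or 3 cultures, sequenced without strand information. The authors deposited an expected count and a TPM value per transcript for each library in the format of Salmon (version 1.5.2 in the submitters' processing notes), whereas STAR and HTSeq are named in the study's methods. The deposited expected counts were not normalised between libraries, and the deposited TPM values were scaled by the authors for effective transcript length and library size. Of 140789 transcripts 99.12% matched the GENCODE annotation of GRCm39. Their counts were summed over 54193 genes and rounded, and those of unmatched transcripts (0.39 to 0.57%) were left out. No column lacked a sample.

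Depth was 18.83 to 26.2 M counts (median 23.72 M). Genes with low counts were removed with filterByExpr, which left 14838. All groups were fitted in 1 quasi-likelihood model of edgeR (version 4.0.16, R 4.3.3) with TMM normalisation and 10 residual degrees of freedom. There were 10 comparisons, including the interaction of each drug with genotype, where the adjusted p-value alone made the call. Biological variation between cultures had a coefficient of 32.3%, which dropped to 19% when the replicate number entered as a block. Same-numbered libraries deviated together from their group means, with a median correlation of 0.52 over 36 pairs against −0.23 over 70 pairs of different numbers. This pairing comes from the values and is not stated for these libraries. P-values without the block rest on the spread between libraries of the same group. Those with the block rest on the spread left once the replicate number is fitted. The test was checked on simulated counts. DESeq2 (version 1.42.0), the block and other settings were alternatives. Within-culture ratios were taken on log2 CPM after adding a prior count of 2. A level per length is the TPM summed over transcripts with at least 10% of the counts of their gene.

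The 7 genes and the lists of partners and markers were chosen with earlier results of these data known. Of the endothelin and adrenomedullin partners, those called and those at the highest level are described, and Ackr3 for its lower level with both drugs. Of the other vasoactive genes only those called are named, whatever their level, and Ace is given with its values. Of the genes most similar to Adm, 1 is not reported here.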

Additional observations from a re-analysis of the deposited data

How the results depend on the processing

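Of the 7 genes, the number called in edgeR without the block was 1 for KO+R against KO and 0 in the other 9 comparisons, and it changed with the test. With the replicate block the number was 1 for KO against WT, 2 for KO+R against KO, 1 for WT+R against WT, 1 for KO+P against WT+P and 1 for KO+R against WT, and the block changed no other call. The block without the library labelled WT replicate 1 gave 1 for KO, 1 for WT+R and 1 for KO+R, each against WT. DESeq2 gave 2 for KO against WT, 2 for KO+R against KO and 2 for WT+R against WT. It gave 1 for KO+P against WT+P and 1 for KO+R against WT+R. In this order it called 62, 468, 548, 59 and 73 of 27209 genes. DESeq2 with the replicate block gave 3 for KO against WT, 1 for KO+P against KO (Ece1) and 2 for KO+R against KO. It also gave 2 for WT+R against WT, 2 for KO+P against WT+P, 2 for KO+R against WT+R and 1 for KO+R against WT. In this order it called 389, 924, 1111, 970, 258, 301 and 1308 of 27228 genes. With only the groups compared in the model 0 were called for KO+R against KO. Other size factors, no filter and the offset for effective length moved none of these numbers. Leaving out 1 library in turn gave 0 to 1 for KO+R against KO and 0 to 1 for KO+P against KO. The causes were not tested, apart from the fewer samples of the last 2 settings. Of 994 alternative values of a fold change 0 turned the direction of a called gene, while 101 others had another sign than the main value. Depth limited Ednrb in WT+R (14 and 15 counts) and Adm2 without propranolol (at most 7 counts).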

Other observations

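The difference between propranolol and untreated libraries varied between cultures, in the same order for Ece1, Ramp2, Ackr3 and Adm2. Between KO+P and KO of the same culture, log2 differences were −1.35, −0.61 and −0.17 for Ece1 in replicates 1, 2 and 3, −1.11, −0.42 and −0.12 for Ramp2, −3.6, −1.61 and −0.31 for Ackr3, and 5.22, 4.55 and 2.06 for Adm2. In WT+P the same 4 genes differed from WT by −1.05 and −0.03 (Ece1), −1.71 and −0.26 (Ramp2), −3.92 and −0.7 (Ackr3), and 5.52 and 3.0 (Adm2) in replicates 1 and 2. For these 4 genes replicate 1 lay farthest from its untreated library within each genotype. Among the KO+P libraries replicate 3, the library with the fewest counts (18.83 M), lay nearest. The order was not limited to these genes. Ramp3 had it as well, with −0.88, −0.46 and −0.28 between KO+P and KO and −1.22 and −0.2 between WT+P and WT. The summed endothelial markers stood at 8098, 10090 and 12190 CPM in KO+P replicates 1, 2 and 3, and their part was not tested. Another order was held by Ednrb, which differed by 1.37, 1.61 and 0.44 between KO+P and KO, and by Edn1, with −0.4, 0.03 and 0.2. These values were singled out after they were seen and carry no test.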
